A study of Mus musculus with 12 samples.

Results

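The genes described here are BCL2 family genes that set the threshold between survival and mitochondrial cell death: Bcl2, Bcl2l1, Mcl1 and Bcl2a1a on the survival side, and Bax, Bak1, Bcl2l11, Bid, Bbc3 and Pmaip1 on the death side. They were taken by gene name from the array design. Of the 10 names, 9 matched, with 12 probes, out of 34821 gene names and 55681 probes on the array. The name Bcl2a1a matched no probe. All 12 probes were well above background on every array, and the 9 genes were tested among 24964 genes. B cells from the spleens of female Balb/c mice had been cultured with a CD40 agonist for 2 days and with LPS, a bacterial cell wall product, for the last 5 hours, then stained for secreted IL-10 and sorted by flow cytometry. The groups were IL-10+ B cells of house dust mite (HDM) allergic mice, IL-10- B cells of HDM mice, IL-10+ B cells of control mice and IL-10- B cells of control mice, with 3 arrays in each. All 4 groups shared the culture, the sort and a global PCR amplification of cDNA made from their mRNA. Whether the replicates of a group are different animals, different cultures or repeats of 1 culture is not stated, so the p-values may reflect technical spread alone.

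In this pathway, BAX and BAK1 are the effectors that open the outer mitochondrial membrane and release cytochrome c, which starts caspase activation. BCL2, BCL-xL (encoded by Bcl2l1), MCL1 and A1 (encoded by the Bcl2a1 genes) hold the effectors and their activators in check. The BH3-only proteins BIM (encoded by Bcl2l11), BID, PUMA (encoded by Bbc3) and NOXA (encoded by Pmaip1) carry death signals by binding the survival proteins, and some of them also bind the effectors directly. In B cells, BIM is known for removing cells that lack survival signals, MCL1 is required for mature B cells to persist, and CD40 stimulation is known for raising BCL-xL and A1.

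The 3 probes on which the results below turn are shown as 60-base oligos in the sense of the transcript, 5′ to 3′, with positions on mouse build mm9. The Bcl2 probe lies at chr1:108608970-108609029 on the minus strand, and its capitals mark bases that encode part of the BH1 region, one of the segments of the groove that binds BH3 helices. The Bcl2l1 probe with the higher signal, which was the one tested, lies at chr2:152655185-152655244 on the minus strand in coding sequence. The Bcl2l11 probe joins bases of chr2:127972893-127983988 on the plus strand, a span of 11096 bases that includes an intron, and its capitals mark bases in the core of the BH3 segment. All 3 therefore read coding sequence of the proteins named above.
Bcl2: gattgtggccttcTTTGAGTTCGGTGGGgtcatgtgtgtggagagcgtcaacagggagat
Bcl2l1: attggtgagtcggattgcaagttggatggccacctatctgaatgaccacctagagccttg
Bcl2l11: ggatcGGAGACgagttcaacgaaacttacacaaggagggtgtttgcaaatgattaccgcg

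Between 47.7% and 62.4% of spots on an array were well above background. IL-10- HDM array 3 stood apart, with a mean correlation of 0.775 with the other arrays across tested genes, against 0.867 to 0.901 for the others. Values without it are given beside some of the results that it moved. The arrays lay on 2 slides: slide 1 held all 6 IL-10+ arrays with IL-10- control arrays 1 and 2, and slide 2 held IL-10- control array 3 with the 3 IL-10- HDM arrays. In HDM mice, sort and slide thus cannot be told apart. Il10 itself followed the sort, at a log2 level of 6.42 to 7.57 on IL-10+ arrays and -5.43 to 1.12 on IL-10- arrays (averaged log2 fold change 7.59, SE 0.84, limma adjusted p = 0.0080). The lowest of these was IL-10- HDM array 3, where Il10 was not well above background, and without that array the fold change was 6.69 (SE 0.27, adjusted p = 2.99e-05). All 8 B cell markers were well above background on every array with 1 exception, Cd79a, which was not on 1 IL-10- HDM array. Of 43 measured markers of T cells, NK cells, myeloid cells, erythroid cells and platelets, 15 were well above background on all 12 arrays and 8 on none. The 15 included 5 of the 8 T cell markers, namely Cd3e, Cd4, Cd8a, Thy1 and Lck. Also among the 15 were Siglech, at 5.76 to 6.54, Csf3r, at 7.24 to 7.72, Csf1r, Ncr1, Nkg7 and Prf1. The 8 on no array included Itgax, Clec9a, S100a8, Hbb-b1, Pf4 and Klrd1. The log2 of the summed unlogged levels of the 8 T cell markers was 1.64 to 1.97 in IL-10+ HDM, 1.11 to 2.07 in IL-10- HDM, 1.08 to 1.68 in IL-10+ control and 1.05 to 1.55 in IL-10- control cells. For the 7 plasmablast markers the log2 of the sum was 6.44 to 6.70 in IL-10+ HDM and 7.03 to 8.26 in IL-10- HDM cells. In control mice it was 6.35 to 7.62 in IL-10+ and 6.26 to 6.77 in IL-10- cells. Irf4, the highest of the markers, alone lay at 6.18 to 8.24 over the 12 arrays, so these sums follow mainly this 1 probe. Of the 7 markers, Igj, the joining chain of secreted antibody, was called higher in IL-10+ cells (averaged 6.84, SE 0.62, adjusted p = 0.00454). Igj was at 0.88 to 3.41 on IL-10+ arrays and -6.24 to -2.95 on IL-10- arrays, where it was well above background on 2 of 6. The 6 tested plasmablast markers were split, with 3 averaged log2 fold changes above 0 and 3 below, and a median of -0.002. The part of these other cells in the results below was not tested.

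Levels below are log2 of the processed signal over the 75th percentile of the same array, so they compare arrays for 1 probe and not probes with each other. Differences are log2 fold changes with the standard error (SE) from limma, fitted to all 24964 genes. Calls required an adjusted p (Benjamini-Hochberg over all these genes) below 0.05.

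None of the 9 genes passed the test in any of the 6 comparisons. With IL-10+ set against IL-10- cells and averaged over both kinds of mice, 0 of 9 were called, where 0.268% of all tested genes were. At an unadjusted p under 0.05 it was also 0 of 9 by the tested probes, against 9.17% of all genes. The other probe of Bcl2l11 was at an unadjusted limma p of 0.031 with every probe tested by itself. Without IL-10- HDM array 3, Bcl2, Bak1 and Bcl2l11 were below an unadjusted p of 0.05 by the tested probes. This was 3 of 9 against 9.15% of all genes, and still none was called. The widest averaged differences were those of the survival gene Bcl2, with a log2 fold change of 1.04, and of Bbc3 at 0.89, Bak1 at -0.83, Bid at -0.60 and Bcl2l11 at -0.50 on the death side. Over the 9 genes, 3 averaged log2 fold changes were above 0 and 6 below, with a median of -0.252, where the median of all tested genes was 0.037. In such sorted bulk samples, fewer cells that express a gene and less RNA per cell cannot be told apart.

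**Figure D1:**
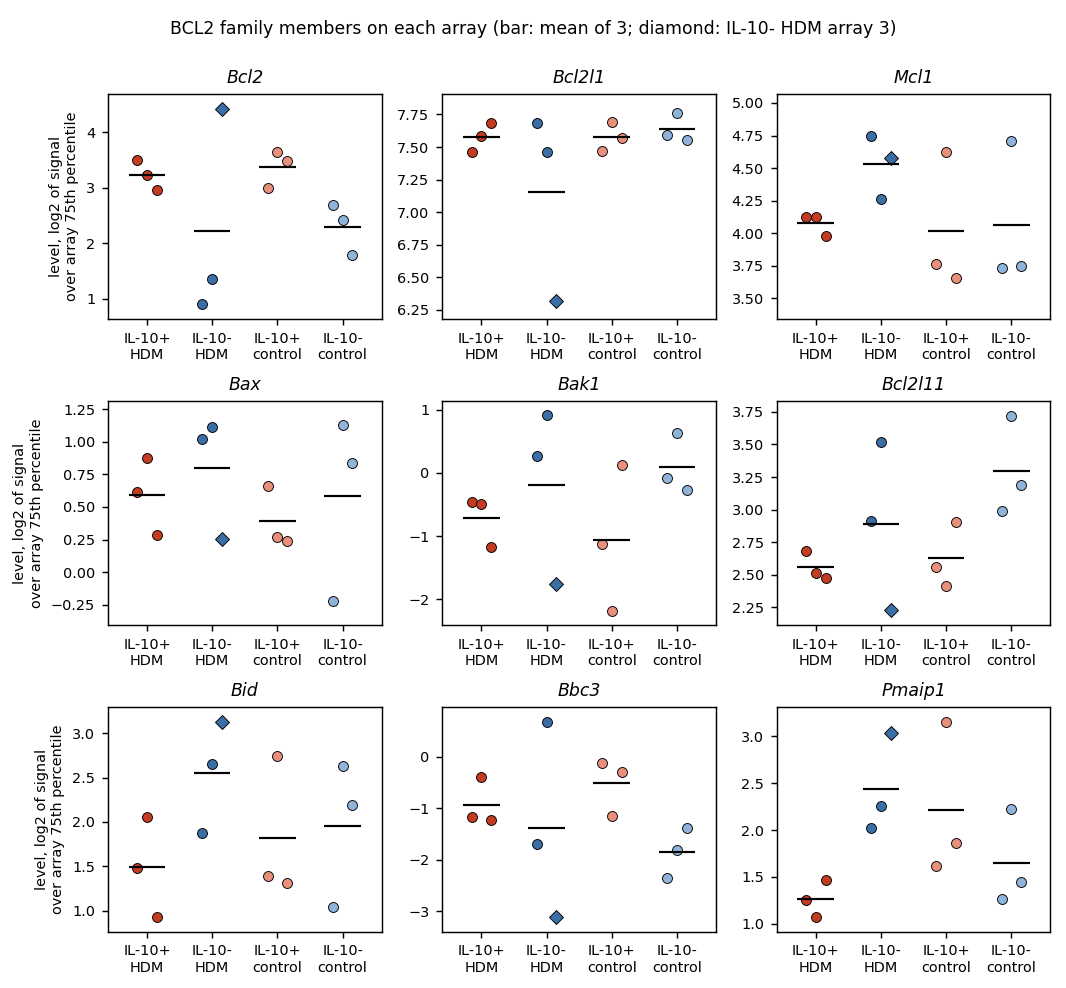
Level of the tested probe of each gene on each array (y axis, log2 of signal over the array's 75th percentile, each panel with its own range) for the 4 groups (x axis). Circles are arrays, the diamond is IL-10- HDM array 3 and bars are means of 3. For Bcl2, the 6 IL-10+ arrays lie between 2.96 and 3.64, above 5 of the 6 IL-10- arrays, while the diamond is the highest array of all at 4.42.

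Bcl2, the founding survival gene of the family, had levels of 3.50, 3.22 and 2.96 on the IL-10+ HDM arrays and 0.89, 1.35 and 4.42 on the IL-10- HDM arrays. Its levels in control mice were 3.00, 3.64 and 3.47 on the IL-10+ arrays and 2.69, 2.41 and 1.79 on the IL-10- arrays. All 6 IL-10+ arrays were thus above 5 of the 6 IL-10- arrays, and IL-10- HDM array 3 was above every other array. The group means, from the highest, were 3.37 ± 0.33 in IL-10+ control, 3.23 ± 0.27 in IL-10+ HDM, 2.29 ± 0.46 in IL-10- control and 2.22 ± 1.91 in IL-10- HDM cells (SD, n = 3 each). Of neighbours in this order, IL-10+ HDM and IL-10- control arrays did not overlap, and the others did.

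The averaged Bcl2 difference was 1.04 (SE 0.54, 95% confidence interval -0.17 to 2.25), or 2.06-fold, with a limma adjusted p of 0.605. Without IL-10- HDM array 3 it was 1.59 (SE 0.25), or 3.01-fold, with an adjusted p of 0.0582, which still missed the threshold. Of all genes, 0.184% were called in that fit. In HDM mice the difference was 1.01 (SE 0.77, adjusted p = 0.567), and without the array 2.11 (SE 0.38, adjusted p = 0.136). The difference in control mice was 1.08 (SE 0.77, adjusted p = 1). With slide as a block, where IL-10- control array 3 alone sets the slide effect, the averaged difference was 0.54 (SE 0.97). Within slide 1, where only control mice have both sorts, the difference was 0.82 (SE 0.36, adjusted p = 0.76).

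**Figure D2:**
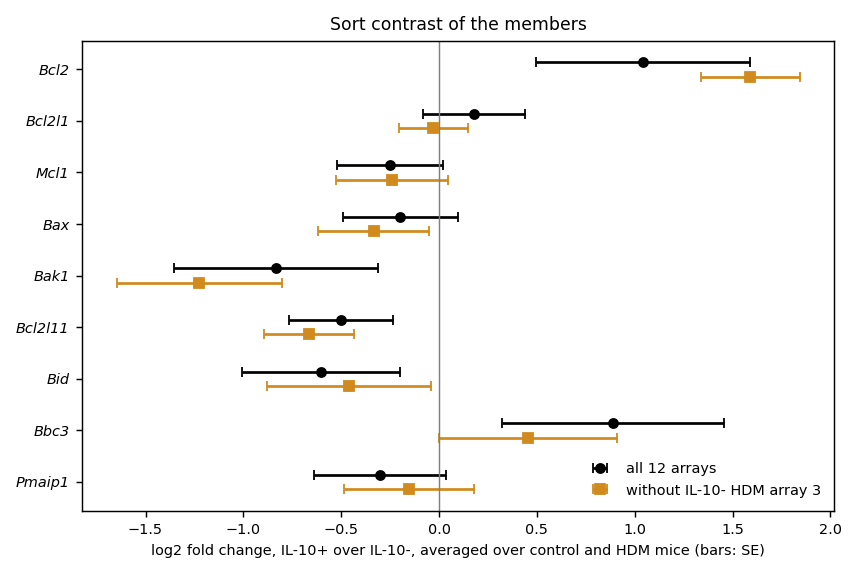
Log2 fold change of IL-10+ over IL-10- cells, averaged over control and HDM mice (x axis), for each gene (y axis), with all 12 arrays (black circles) and without IL-10- HDM array 3 (orange squares). Bars are SE. Bcl2 lies at 1.04 with all arrays and 1.59 without the array, and Bcl2l1 at 0.18 and -0.03.

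Bcl2l1, which encodes BCL-xL, lay in a narrow range on 11 of the 12 arrays. Its tested probe, shown above, gave 7.46, 7.59 and 7.69 on the IL-10+ HDM arrays and 7.69, 7.47 and 6.32 on the IL-10- HDM arrays. The control arrays read 7.47, 7.69 and 7.57 on the IL-10+ arrays and 7.59, 7.76 and 7.56 on the IL-10- arrays. Apart from 6.32 on IL-10- HDM array 3, all arrays lay between 7.46 and 7.76, and the groups overlapped. The averaged difference was 0.18 (SE 0.26, 95% confidence interval -0.40 to 0.76, adjusted p = 0.86), and without that array -0.03 (SE 0.18).

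The other Bcl2l1 probe lies 48781 bases away at chr2:152606404-152606463 on the same strand, and its levels did not follow those of the tested probe. It gave 2.22, 1.89 and 2.16 on the IL-10+ HDM arrays and 2.88, 2.83 and 2.61 on the IL-10- HDM arrays, which did not overlap. For control mice the readings were 2.29, 2.39 and 2.41 on the IL-10+ arrays and 2.65, 2.52 and 2.26 on the IL-10- arrays, which overlapped. With every probe tested by itself, its averaged difference was -0.40 (SE 0.21, adjusted p = 0.593), opposite in sign to the 0.18 of the tested probe. That contrast in sign rests on IL-10- HDM array 3, since without it the other probe was at -0.44 and the tested probe at -0.03. In HDM mice it was -0.69 (SE 0.29, adjusted p = 0.361). As a description, Pearson's r between both probes was -0.171 over the 12 arrays and 0.0974 without IL-10- HDM array 3.

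**Figure D3:**
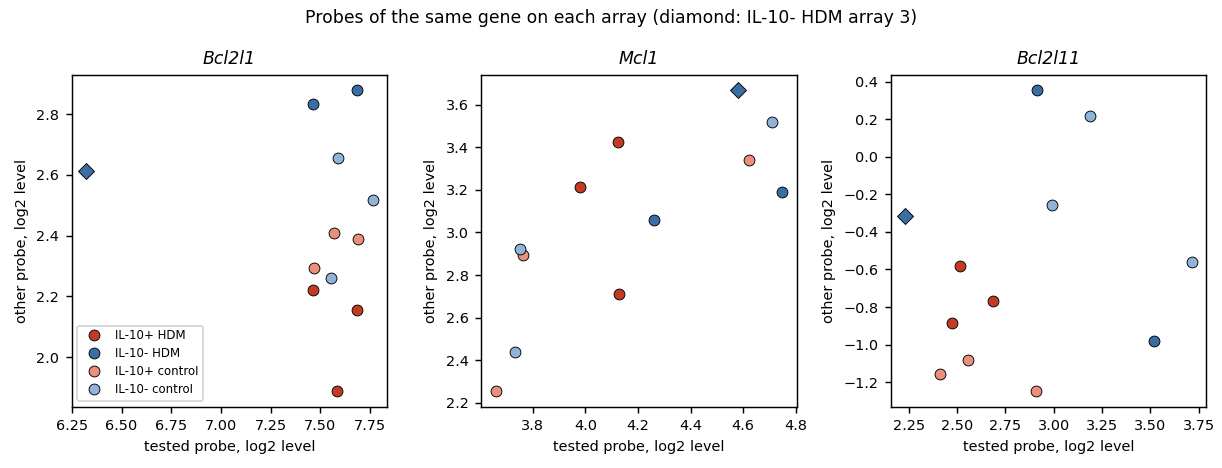
Level of the probe not used in the fit (y axis) against the tested probe (x axis) of Bcl2l1, Mcl1 and Bcl2l11 on each array, both as log2 of signal over the array's 75th percentile, coloured by group. The Mcl1 probes follow each other, with r of 0.763 over 12 arrays, while those of Bcl2l1 and Bcl2l11 give -0.171 and 0.176.

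Mcl1, a short-lived survival protein, was measured by probes at chr3:95465543-95465602 (tested) and chr3:95466855-95466914, both on the plus strand. The tested probe was at 3.98 to 4.13 in IL-10+ HDM and 4.26 to 4.75 in IL-10- HDM cells, which did not overlap, and at 3.66 to 4.62 in IL-10+ control and 3.73 to 4.71 in IL-10- control cells. Averaged over mice, the difference was -0.25 (SE 0.27, adjusted p = 0.81), and that of the other probe -0.16 (SE 0.30). In HDM mice it was -0.45 (SE 0.38, adjusted p = 0.604).

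A1, the survival protein missing from the name match, is encoded in mouse by several near-identical genes. The probe named Bcl2a1d, at chr9:88618165-88618224, carries RefSeq transcripts of Bcl2a1d, Bcl2a1b and Bcl2a1a, so its signal cannot be assigned to 1 of these copies. It was at 3.80 to 4.31 in IL-10+ HDM, 4.17 to 4.55 in IL-10- HDM, 3.82 to 4.75 in IL-10+ control and 3.96 to 4.30 in IL-10- control cells, and in the order of group means all neighbours overlapped. Averaged, it differed by -0.10 (SE 0.23, 95% confidence interval -0.61 to 0.41, adjusted p = 0.917). The probe named Bcl2a1c carries a RefSeq transcript of that gene alone, and whether this copy gives A1 protein was not tested. This probe, at chr9:114239422-114239481, was at 6.47 to 6.52 in IL-10+ HDM and 6.70 to 6.73 in IL-10- HDM cells, which did not overlap. In control mice it was at 6.13 to 6.83 in IL-10+ and 6.11 to 6.57 in IL-10- cells, which overlapped. Its difference was -0.22 (SE 0.29) in HDM mice and 0.15 (SE 0.29) in control mice, and averaged -0.03 (SE 0.20, adjusted p = 0.972).

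Of the effectors, Bak1 had the wider difference. Its probe, at chr17:27156807-27156866, gave -0.45, -0.50 and -1.17 on the IL-10+ HDM arrays and 0.27, 0.92 and -1.76 on the IL-10- HDM arrays. Control mice had levels of -1.12, -2.18 and 0.13 on the IL-10+ arrays and -0.08, 0.64 and -0.27 on the IL-10- arrays. The groups overlapped in both kinds of mice, with IL-10- HDM array 3 the lowest of its group and IL-10+ control array 3 the highest of its own. Averaged over mice, Bak1 differed by -0.83 (SE 0.52, adjusted p = 0.669). Leaving out IL-10- HDM array 3 gave -1.23 (SE 0.42, adjusted p = 0.38).

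Bax, measured at chr7:52717122-52717181, lay between -0.22 and 1.13 on all 12 arrays. Its group means were 0.59 ± 0.30 in IL-10+ HDM, 0.80 ± 0.47 in IL-10- HDM, 0.39 ± 0.24 in IL-10+ control and 0.58 ± 0.71 in IL-10- control cells (SD, n = 3 each), and all neighbours in their order overlapped. Averaged over mice, Bax differed by -0.20 (SE 0.29, 95% confidence interval -0.85 to 0.46, adjusted p = 0.866).

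Bcl2l11, which encodes the BH3-only protein BIM, was lower in IL-10+ cells by both of its probes, without passing the test. The tested probe, shown above, gave 2.68, 2.51 and 2.48 on the IL-10+ HDM arrays and 2.91, 3.52 and 2.23 on the IL-10- HDM arrays. The levels in control mice were 2.56, 2.41 and 2.91 on the IL-10+ arrays and 2.99, 3.72 and 3.19 on the IL-10- arrays. All IL-10+ arrays were below 5 of the 6 IL-10- arrays, and IL-10- HDM array 3 was the lowest array of all. The first point rests on a near tie, with IL-10+ control array 3 at 2.908 and IL-10- HDM array 1 at 2.912.

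The averaged Bcl2l11 difference was -0.50 (SE 0.27, 95% confidence interval -1.09 to 0.09, adjusted p = 0.613), and without that array -0.67 (SE 0.23, adjusted p = 0.384). The other probe joins bases of chr2:127954736-127955417 and is listed for an Ensembl transcript that differs from the RefSeq ones. It gave -0.77, -0.58 and -0.89 on the IL-10+ HDM arrays and 0.36, -0.98 and -0.32 on the IL-10- HDM arrays, against -1.08, -1.15 and -1.25 on the IL-10+ control arrays and -0.26, -0.56 and 0.22 on the IL-10- control arrays. Its groups overlapped in HDM mice through IL-10- HDM array 2 and did not overlap in control mice. Its averaged difference was -0.70 (SE 0.28, adjusted p = 0.48). The probes thus had the same sign, although they correlated with r of only 0.176 over the 12 arrays.

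Bbc3, which encodes PUMA, a p53 target, was the death gene with a positive averaged difference. Its probe, at chr7:16903403-16903462, gave -1.17, -0.40 and -1.23 on the IL-10+ HDM arrays and -1.70, 0.69 and -3.12 on the IL-10- HDM arrays. Among control mice the levels were -0.11, -1.14 and -0.29 on the IL-10+ arrays and -2.35, -1.81 and -1.39 on the IL-10- arrays. The control groups did not overlap, while the IL-10- HDM arrays spread on both sides of the IL-10+ HDM arrays. The averaged difference was 0.89 (SE 0.57, adjusted p = 0.674). It was 0.45 (SE 0.46) without IL-10- HDM array 3 and 1.40 (SE 0.37, adjusted p = 0.203) without IL-10- HDM array 2. HDM mice alone gave 0.44 (SE 0.80, adjusted p = 0.824), with the opposite sign when IL-10- HDM array 3 was left out (-0.43, SE 0.68). Control mice alone gave 1.33 (SE 0.80, adjusted p = 1), and within slide 1 it was 1.56 (SE 0.47, adjusted p = 0.544).

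Bid, which encodes a BH3-only protein that caspase-8 activates by cleavage, was measured at chr6:120843464-120843523. It lay at 0.93 to 2.06 in IL-10+ HDM, 1.87 to 3.13 in IL-10- HDM, 1.31 to 2.75 in IL-10+ control and 1.04 to 2.63 in IL-10- control cells, and all groups overlapped with their neighbours. The averaged difference was -0.60 (SE 0.41, adjusted p = 0.69). In HDM mice it was -1.06 (SE 0.57, adjusted p = 0.437), and in control mice -0.14 (SE 0.57). Without IL-10- HDM array 3, the highest Bid array at 3.13, the averaged difference was -0.46 (SE 0.42) and that in HDM mice -0.78 (SE 0.62).

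Pmaip1, which encodes NOXA, a BH3-only protein that pairs mainly with MCL1 and A1, gave 1.25, 1.07 and 1.47 on the IL-10+ HDM arrays and 2.02, 2.25 and 3.03 on the IL-10- HDM arrays. In control mice it gave 1.61, 3.16 and 1.87 on the IL-10+ arrays and 1.26, 2.23 and 1.45 on the IL-10- arrays. The IL-10+ HDM arrays were thus below every array of the IL-10- HDM and IL-10+ control groups, while the control groups overlapped each other. The group means, from the highest, were 2.44 ± 0.53 in IL-10- HDM, 2.21 ± 0.83 in IL-10+ control, 1.64 ± 0.51 in IL-10- control and 1.26 ± 0.20 in IL-10+ HDM cells (SD, n = 3 each), and all neighbours in this order overlapped.

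In HDM mice the Pmaip1 difference between IL-10+ and IL-10- cells was -1.17 (SE 0.47, adjusted p = 0.344). By the tested probes, Pmaip1 was the only 1 of the 9 genes at an unadjusted p under 0.05 there, where 13.3% of all genes were, and 0 of 9 were called against 0.168% of all genes. Without IL-10- HDM array 3 Pmaip1 was at -0.87 (SE 0.49, adjusted p = 0.585). Bcl2 in its place was then the 1 gene at an unadjusted p under 0.05 by the tested probes, against 9.93% of all genes. The other Bcl2l1 probe was at an unadjusted limma p of 0.0395 in HDM mice, and of 0.0281 without that array. In control mice the Pmaip1 difference was 0.57 (SE 0.47, adjusted p = 1), with 0 of 9 genes called against 0.016% of all genes.

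**Figure D4:**
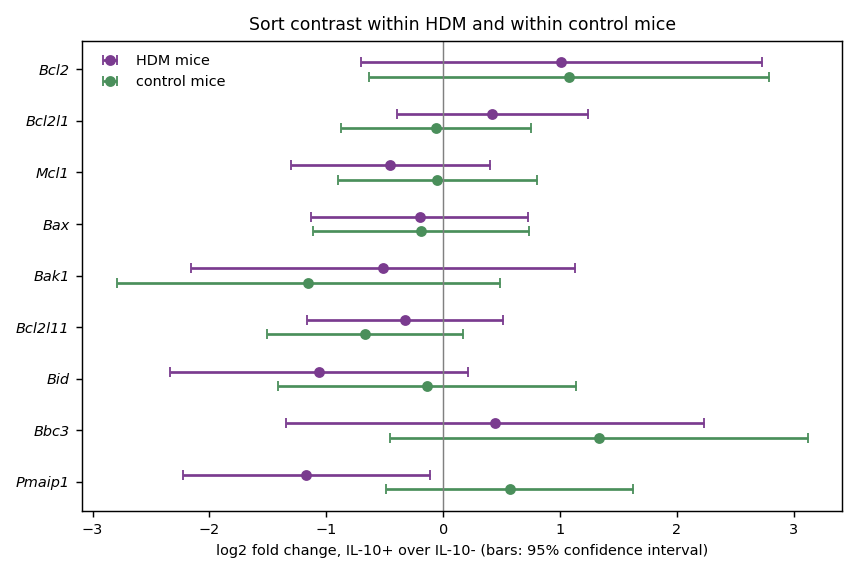
Log2 fold change of IL-10+ over IL-10- cells (x axis) for each gene (y axis) within HDM mice (purple) and within control mice (green). Bars are 95% confidence intervals. The intervals hold 0 for every gene in both kinds of mice, except Pmaip1 in HDM mice at -1.17, where the value in control mice is 0.57.

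The difference of the sort contrast between HDM and control mice was tested in the same fit. It was -1.74 for Pmaip1 (SE 0.67, 95% confidence interval -3.23 to -0.24, adjusted p = 0.757), and -1.44 (SE 0.66, adjusted p = 0.749) without IL-10- HDM array 3. For the other genes it ranged from -0.92 for Bid to 0.64 for Bak1, and without that array from -1.76 for Bbc3 (-0.89 with it) to 1.03 for Bcl2, with Bak1 at -0.15. Here too 0 of 9 genes were called, against 0.012% of all genes, and Pmaip1 was the 1 gene at an unadjusted p under 0.05, where 6.46% of all genes were. Without IL-10- HDM array 3 no member was below it, against 6.65% of all genes. For Bcl2 it was -0.07 (SE 1.09), and 1.03 (SE 0.51, adjusted p = 0.767) without that array.

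Members whose arrays did not overlap between the sorts were also counted by their tested probes, beside the share of all genes. Over all 12 arrays 0 of 9 genes separated the sorts, where 0.937% of all genes did. Without IL-10- HDM array 3, Bcl2 (higher in IL-10+ cells) and Bcl2l11 (lower in IL-10+ cells, by only 2.908 against 2.912) did, where 1.35% of all genes did. In HDM mice Mcl1 and Pmaip1 did, lower in IL-10+ cells, where 22.6% of all genes did, and in control mice Bbc3, Bcl2 and Bcl2l11 did, where 9.45% did.

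Set against control mice, HDM mice gave no called member in either sorted population. In IL-10+ cells 0 of 9 genes were called, against 0.00401% of all genes, and the log2 fold changes ran from -0.95 for Pmaip1 (SE 0.47, adjusted p = 1) to 0.35 for Bak1. By the tested probes, Pmaip1 was the 1 gene whose HDM and control arrays did not overlap, where 9.61% of all genes did not. The arrays of the other Bcl2l1 probe (lower in HDM mice) and the other Bcl2l11 probe (higher in HDM mice) did not overlap either. In IL-10- cells 0 of 9 were called, against 0.0481% of all genes, and the differences ran from -0.48 for Bcl2l1 (SE 0.37) to 0.79 for Pmaip1 (SE 0.47, adjusted p = 0.619). Leaving out IL-10- HDM array 3 put Bcl2l1 at -0.06 (SE 0.26) and Pmaip1 at 0.49 (SE 0.49), and the ends of the range were then Bcl2 at -1.17 (SE 0.38, adjusted p = 0.465) and Bbc3 at 1.34 (SE 0.68, adjusted p = 0.717). With all arrays, no member separated the IL-10- HDM from the IL-10- control arrays, where 11.9% of all genes did, and Bcl2 was at -0.08 (SE 0.77). Bcl2 overlapped there only through IL-10- HDM array 3, at 4.42. Its other IL-10- HDM arrays, at 0.89 and 1.35, were below the IL-10- control arrays, at 1.79 to 2.69. Slide moves with this comparison, since slide 2 held all the IL-10- HDM arrays and 1 IL-10- control array, and with slide as a block Bcl2 was at 0.43 and Pmaip1 at 0.99. Both comparisons share their arrays with the sort comparisons.

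For each gene, the named gene with the most similar levels over the 12 arrays was picked among all tested genes, as a description with no test. Pearson's r was 0.991 for Bcl2l1 with Cog8, 0.979 for Pmaip1 with March7, 0.968 for Mcl1 with Rbm17, 0.932 for Bax with Fbxo25 and 0.927 for Bid with Wrnip1. It was 0.91 for Bcl2 with Mmp10, 0.906 for Bak1 with Arfgap1, 0.897 for Bbc3 with Gpr142 and 0.88 for Bcl2l11 with Lnx2. The 12 points share the sort and the slides. IL-10- HDM array 3 is the highest point for Bcl2 and Bid and the lowest for Bcl2l1, Bcl2l11 and Bbc3.

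The neighbouring genes of the pathway were described by 4 lists, and no gene of them was called in any of the 6 comparisons. Of 17 other family genes 11 were tested, with a median averaged log2 fold change of -0.101, 3 above 0 and 8 below. Of 21 genes of mitochondrial caspase activation 20 were tested, with a median of 0.167, and of 11 genes of the death receptor arm 10, with a median of 0.215. Of 26 regulators of the family 25 were tested, with a median of 0.102. At an unadjusted p under 0.05 the lists held 1, 4, 1 and 5 genes, where 9.17% of all tested genes were below it.

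**Figure D5:**
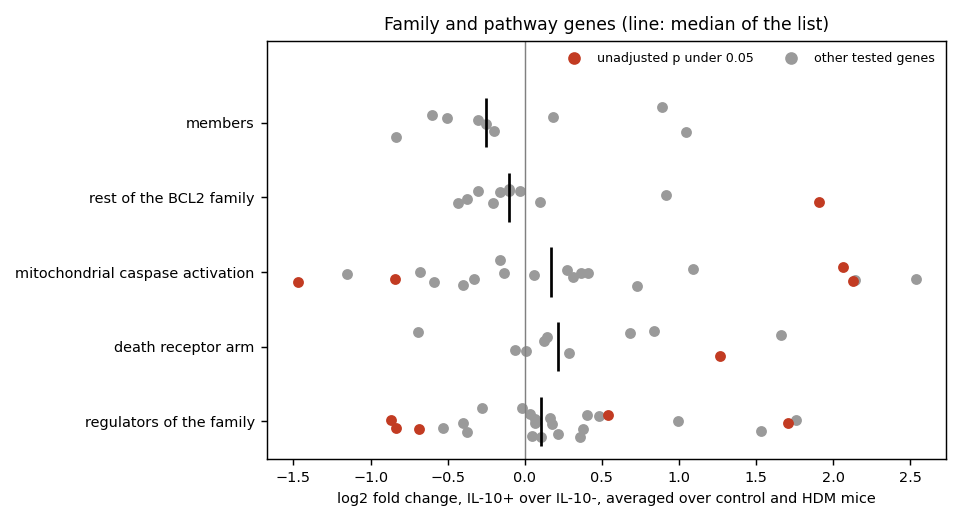
Averaged log2 fold change of IL-10+ over IL-10- cells (x axis) for the tested genes of each list (y axis, spread vertically within a list for legibility only). Red points have an unadjusted p under 0.05, grey points do not, and black lines are medians, from -0.252 for the members to 0.215 for the death receptor arm.

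Among the other family genes the smallest p belonged to Bcl2l15, a less studied relative. It lay between -2.95 and 0.93 on IL-10+ arrays (median -0.23) and between -3.24 and -1.86 on IL-10- arrays (median -2.25). The lowest IL-10+ array, IL-10+ control array 2, was among the IL-10- arrays, and the other 5 were above them all. The averaged difference was 1.91 (SE 0.53, adjusted p = 0.249). The mitochondrial receptors of mitophagy followed, with Bnip3 at 0.91 (SE 0.89), well above background on 4 of 6 IL-10+ and 2 of 6 IL-10- arrays. Its highest array was IL-10+ control array 2, at -0.23. Without IL-10- HDM array 3, Bnip3 was at 1.87 (SE 1.32) in control mice and -0.05 (SE 1.47) in HDM mice. Bnip3l was at -0.43 (SE 0.50), or -0.89 (SE 0.31, adjusted p = 0.388) when IL-10- HDM array 3 was left out.

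In the caspase arm, Dffb, the nuclease that cuts DNA once caspase-3 has freed it, lay between -1.29 and -0.63 on IL-10+ arrays and between -0.80 and 0.47 on IL-10- arrays. The sorts overlapped because IL-10+ HDM array 3 was above IL-10- control arrays 1 and 2, and the averaged difference was -0.84 (SE 0.23, adjusted p = 0.242). Birc5, a mitotic protein of the inhibitor of apoptosis family, was at 2.13 (SE 0.66, adjusted p = 0.327). Apaf1, the scaffold on which cytochrome c assembles caspase-9, was at 2.06 (SE 0.72, adjusted p = 0.401), or 1.72 (SE 0.72) without IL-10- HDM array 3. Both were well above background on 6 of 6 IL-10+ and 3 of 6 IL-10- arrays, so these sizes rest in part on dim signals.

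In the death receptor arm, Fadd, the adaptor that brings caspase-8 to death receptors, lay between -2.88 and -0.78 on IL-10+ arrays and between -3.78 and -2.45 on IL-10- arrays, overlapping through IL-10+ control array 1. Its averaged difference was 1.27 (SE 0.36, adjusted p = 0.263). Tnfrsf10b, a TRAIL receptor, was at 0.84 (SE 0.47), well above background on 3 of 6 IL-10+ and 2 of 6 IL-10- arrays. Tnfaip3, the NF-kB inhibitor A20, was at -0.69 (SE 0.42), or -0.52 (SE 0.42) without IL-10- HDM array 3.

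Among the regulators, Stat5a, a transcription factor downstream of cytokine receptors, lay between 2.01 and 2.85 on IL-10+ arrays and between 2.66 and 3.79 on IL-10- arrays. IL-10+ control array 2 alone of the IL-10+ arrays reached the IL-10- range, and the averaged difference was -0.83 (SE 0.23, adjusted p = 0.24). Myc, which drives growth and sensitises cells to apoptosis, lay between 4.77 and 5.68 on IL-10+ arrays and between 5.38 and 6.41 on IL-10- arrays, with a difference of -0.69 (SE 0.25, adjusted p = 0.428). Foxo3, a transcription factor known to induce Bcl2l11 and Bbc3, was at 1.71 (SE 0.58, adjusted p = 0.387), well above background on 4 of 6 IL-10+ and 2 of 6 IL-10- arrays. Without IL-10- HDM array 3, Foxo3 was at 3.37 (SE 0.95, adjusted p = 0.317) in HDM mice and -0.10 (SE 0.85) in control mice.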

How the data were processed

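The series holds 12 one-colour Agilent arrays (design 028005 on build mm9, per the file headers), 3 in each of 4 groups. Per the labels, mRNA-derived cDNA was amplified by PCR and labelled with Cy3. Such amplification can add spread between samples for single genes. Per the file headers, Agilent Feature Extraction 10.7.3.1 gave the deposited intensity values: the processed signal, background-subtracted and not normalised between arrays, and the mean spot and local background signals. Per the file headers, the flags per spot are other values, not intensities. The authors' value table was a ratio of that signal to the array's median over gene spots, as recomputation showed to within 0.00077%.

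From the processed signal, log2 minus the array's 75th percentile was taken, outlier spots were left out and spots of a probe averaged. Of the 37733 probes well above background on at least 3 arrays, 84 were left out for outlier spots. The probe with the highest mean stood for its gene, which left 24964 genes. Comparisons used lmFit and eBayes of limma 3.58.1, run under R 4.3.3 (1 mean per group, 8 residual and 2.12 prior degrees of freedom), and the number of arrays limits their precision. The code was tested on simulated data. Adjusted p-values are Benjamini-Hochberg over all tested genes. The members and gene lists were chosen with earlier results of these data known. The text names every member, in each list the called genes or otherwise the 3 with the smallest p of the averaged comparison, the gene most like each member, and Il10. Marker genes and the Bcl2a1 probes named beside them were chosen after their values were seen. Alternatives were normexp background correction, quantile normalisation, the authors' value table, other filters, all probes, slide and replicate blocks, array weights and leaving out arrays.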

Additional observations from a re-analysis of the deposited data

How the results depend on the processing

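No BCL2 family gene was called in any of the 6 comparisons under any of the 22 to 24 alternatives run for each, so each count of called members stayed at 0. Over all tested genes, the counts of calls did vary. Averaged over both kinds of mice, IL-10+ against IL-10- cells gave 67 calls, with 0 under the slide block as the lowest and 139 without IL-10- HDM array 1 as the highest. The other ranges were 0 to 214 for the sort in HDM mice (42 as reported), 0 to 12 in control mice (4), 0 to 6 for HDM against control in IL-10+ cells (1), 0 to 130 in IL-10- cells (12) and 0 to 14 for the difference of the sort contrast (3). The smallest adjusted p of a member in the averaged comparison was 0.0582, for Bcl2 without IL-10- HDM array 3. Averaged Bcl2 ranged from 0.54 with the slide block to 1.59 without that array. The fit on all probes without that array was chosen after seeing the data.

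Of 1260 alternative log2 fold changes, 75 had another sign than the reported value. None of these was called, and in 72 of them the reported value was within 1 SE of 0. The cause of a change of sign was not tested, beyond what the construction of an alternative shows. In the averaged comparison, Bcl2l1 (0.18 as reported) was at -0.15 in the authors' value table and between -0.03 and 0.31 with single arrays left out, and Bax was at 0.06 with the slide block.

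In HDM mice, the sort contrast of Bcl2l1 was -0.38 in the value table. Bbc3 was at -0.35 in the value table, at -0.20 with array weights, and between -0.43 and 1.48 with single arrays left out. Bak1 ranged between -1.30 and 0.04 with arrays left out, Bcl2l11 was at 0.03 after quantile normalisation, and Bax at 0.18 with the slide block. In control mice, the value table put Bcl2l1 at 0.07 and Mcl1 at 0.09. With single arrays left out, Bcl2l1 ranged from -0.12 to 0.00, Mcl1 from -0.35 to 0.27, Bid from -0.61 to 0.20 and Bax from -0.59 to 0.08.

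For HDM against control in IL-10+ cells, the value table gave Bcl2l1 -0.28, Mcl1 -0.22 and Bax -0.08. Array weights gave Bak1 -0.29, normexp Bcl2l1 -0.03 and quantile normalisation Bcl2l11 0.01. With arrays left out, Bcl2l1 ranged from -0.05 to 0.06, Bak1 from -0.21 to 0.94, Bcl2l11 from -0.18 to 0.07, Bid from -0.61 to 0.14 and Mcl1 from -0.11 to 0.37. In IL-10- cells, the value table gave Bcl2 0.57, Bcl2l1 0.17, Bcl2l11 0.24 and Bak1 0.36, and the slide block gave Bcl2 0.43, Bak1 0.08 and Bax -0.04. Array weights gave Bak1 0.38. With arrays left out, Bcl2 ranged from -1.17 to 0.59, Bak1 from -0.84 to 0.50, Bbc3 from -0.56 to 1.34 and Bax from -0.19 to 0.49.

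For the difference of the sort contrast between HDM and control mice, the value table gave Bcl2l1 -0.45, Bcl2l11 -0.59 and Bak1 -0.30. Array weights gave Bcl2 0.70, Bcl2l11 -0.11 and Bak1 -0.68. Quantile normalisation gave Bcl2 0.35, Mcl1 0.05 and Bax 0.08, normexp gave Bax 0.04 and the slide block Bax 0.25. The Mcl1 probe that did not stand for its gene gave 0.12 without IL-10- HDM array 3. With arrays left out, Bcl2 ranged from -0.73 to 1.03, Bak1 from -0.15 to 1.23, Bbc3 from -1.76 to 0.14 and Bax from -0.28 to 0.39. The value table also moved the median of all genes, to -0.29 in the averaged comparison, -0.64 for the sort in HDM mice, 0.60 for HDM against control in IL-10- cells and -0.78 for the difference, against 0.04, 0.16, -0.04 and 0.16 as reported.

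The labels number the arrays of each group from 1 to 3. Same-numbered arrays of both sorts deviated from their group means with correlations of 0.0192 to 0.149, all above 0, and only control pairs 1 and 2 were over 0.1. Different-numbered arrays of the same kind of mice had correlations of -0.194 to 0.0879. These small values cannot settle whether the numbers mark pairs, and the main fit did not take them as pairs. A fit blocked on that number called 36 genes in the averaged comparison, 0 of them members, and averaged Bcl2 was 1.04 (SE 0.58, adjusted p = 0.654). IL-10- HDM array 3, the split of HDM mice by slide, 3 arrays per group and, for dim genes such as Apaf1, Birc5 and Foxo3, signal near background limit what can be resolved.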
